A study of Mus musculus with 3 samples.

Results

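The nuclear genes of respiratory complex I were described in 3 RNA-seq libraries of mouse T-helper 1 cells. The genes were taken by name: every protein-coding gene whose symbol begins with Ndufa, Ndufb, Ndufc, Ndufs or Ndufv followed by a number, together with Ndufab1 and the Ndufaf genes. This gave 46 of the 50600 annotated genes. Of these, 36 encode structural subunits (7 core and 29 accessory) and 8 encode assembly factors (Ndufaf1 to Ndufaf8). The remaining members, Ndufa4 and Ndufa4l2, carry the family name but are not counted here as complex I subunits, since Ndufa4 protein belongs to complex IV and Ndufa4l2 is its paralog.

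Complex I (NADH:ubiquinone oxidoreductase) is the entry point of the mitochondrial respiratory chain. It takes electrons from NADH, passes them along iron-sulfur clusters to ubiquinone and pumps protons across the inner membrane. The core subunits carry the catalysis, and the membrane part of the core is encoded by mitochondrial DNA. Accessory subunits surround the core, and assembly factors help build the enzyme without staying in it. T cells rely on mitochondrial respiration at rest and in memory, and add a large glycolytic flux on activation.

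The cells were primary cells of the C57BL/6NJ strain labelled as T-helper 1, a CD4 T cell type known for interferon gamma production, and they formed the only group: 3 biological replicates from separate biosamples that share a donor identifier. The labels give no treatment, the sex was not collected, the age is unknown, and the header of each count table carries a time of 0 hours. A protocol for CD4+ T cell differentiation is linked, but how far the cells had been polarised is not given. The labels name the assay total RNA-seq, whereas the linked library protocol is named for PolyA+ RNA. With this 1 group, genes were compared within each library and libraries with each other.

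Total counts were 3647366 in replicate 1, 4305077 in replicate 2 and 2510319 in replicate 3. Levels are in TPM, a length-scaled transcript abundance: the counts divided by the deposited exon length of the gene and scaled to a common total per library, given as mean ± SD over the 3 libraries. The 6 T cell markers (Cd3e, Cd3g, Cd3d, Lck, Cd4, Trac) summed to 1631, 2617 and 721 TPM in replicates 1, 2 and 3. The 3 Th1 markers (Tbx21, Ifng, Cxcr3) summed to 0.624, 1.80 and 0 TPM, so the defining genes of the labelled subset were at or near 0, and Cxcr3 had no count in any library. The B cell list (Cd79a, Ms4a1, Igkc) summed to 33.2, 48.3 and 49.6 TPM with Ms4a1 and Igkc at 0. The myeloid list (Lyz2, Csf1r, Itgam) summed to 81.2, 68.0 and 95.9 TPM, of which Csf1r made up 80.9, 66.7 and 95.8, with Lyz2 at 0, 1 and 0 counts and Itgam at 3, 9 and 1. The B cell sum was Cd79a alone, and erythroid Hba-a1 was at 0. Counting was strand-specific, with a fragment counted where its first read has the strand of the gene. The orientation that the library kit gives is not stated in the sources used here. If it is the opposite one, a gene was credited with fragments transcribed from its other strand, so each TPM below is a level under the authors' strand setting. Genes whose exons overlap exons of the other strand stood apart between libraries. Their median log2 ratio of replicate 3 to replicate 2 was 1.02 after TMM scaling (trimmed mean of M-values), against -0.45 for genes whose other strand holds no gene within 5 kb. Protein-coding genes summed to 422287, 533166 and 349727 TPM in replicates 1, 2 and 3. TPM are shares of a fixed total, so a larger sum for some genes leaves less for the rest, and the strand class of the members is described after their levels. In bulk RNA, fewer cells of a type and less RNA per cell cannot be told apart.

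Nearly all members were detected. At least 1 TPM was reached in all 3 libraries by 42 of the 46 members (91.3%), beside 9043 of the 13235 protein-coding genes with any count (68.3%). At least 10 TPM in all libraries was reached by 23 members (50%), beside 27.1% of those protein-coding genes. The median of the members' mean TPM was 24.6, and that of the protein-coding genes with a count was 7.15. The members that fell under 1 TPM in some library were Ndufa4l2, Ndufb4, Ndufaf1 and Ndufaf6. The median member stood at 21.1, 36.1 and 11.7 TPM in replicates 1, 2 and 3. Replicate 2 was the highest library for 43 of the 46 members and replicate 3 the lowest for 38, an order that the T cell markers shared and whose source was not tested.

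**Figure D1:**
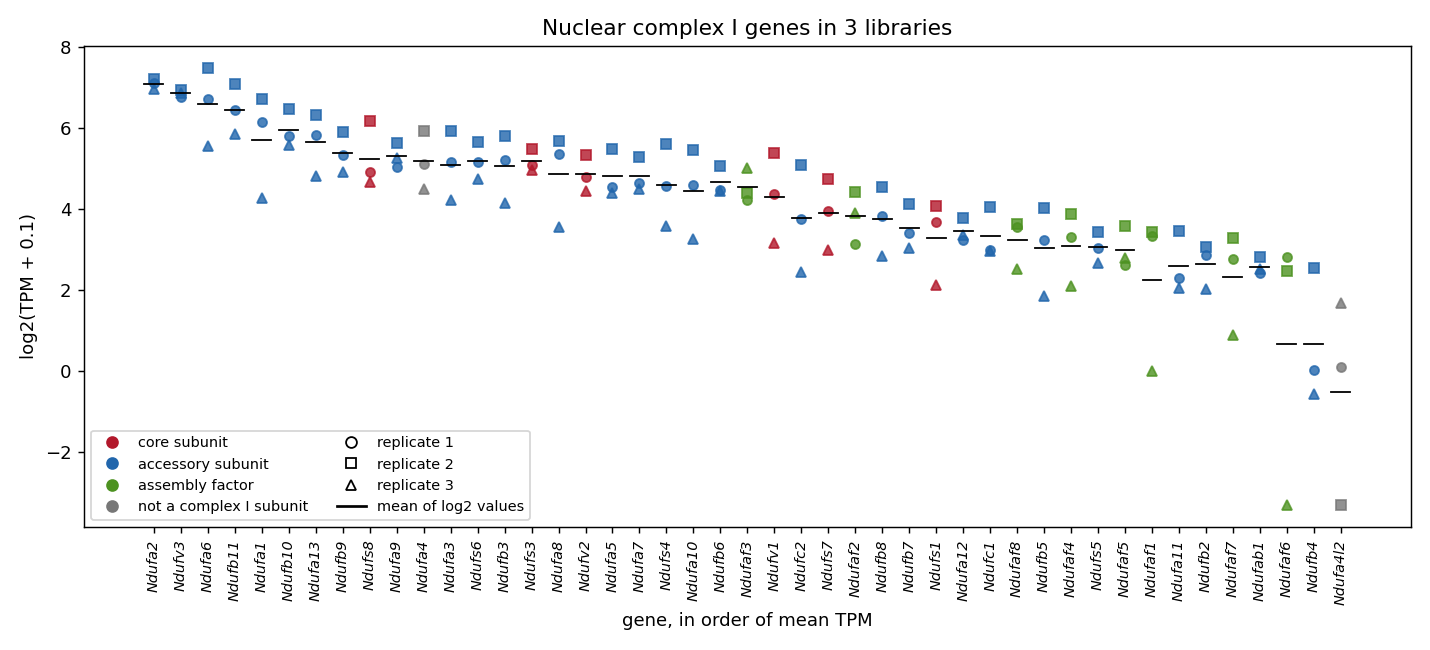
Level of each of 45 nuclear complex I genes as log2(TPM + 0.1), in order of mean TPM, with a symbol for each of the 3 libraries and a bar at the mean of the log2 values. With the deposited length Ndufa2 and Ndufv3 head the order, assembly factors other than Ndufaf3 lie in its lower part, and Ndufa4l2 (mean 1.34 TPM) is last.

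The order of the members was alike in the 3 libraries in its broad course but not in its steps. Across the 46 genes, the rank correlation (Spearman rho) of TPM was 0.966 between replicates 1 and 2, 0.853 between 1 and 3, and 0.860 between 2 and 3, where the points share annotation and gene length. Of the 45 neighbouring pairs in the order of mean TPM, 4 kept their order in all 3 libraries. Most neighbours therefore did not differ beyond the spread of the libraries. The 8 highest subunits held 49.6%, 45.8% and 48.9% of the summed TPM of the members in replicates 1, 2 and 3.

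Gene length bears on this order. The deposited length joins all annotated exons of a gene, and 9 members have a length over 3 times the median of their protein-coding transcripts. Across the members, length and mean TPM had a Spearman rho of -0.40, beside -0.079 over the 13235 protein-coding genes with a count. With the median transcript length in its place, 13 members moved by at least 10 ranks and the rank correlation of the members' order with the original was 0.744. The levels below use the deposited length, and the other value is given where a statement turns on it.

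Core subunits that hold the NADH site and the quinone site were all detected. Ndufv1, which binds NADH and the flavin cofactor (chr19:4007497-4012806, minus strand), was at 20.4, 41.1 and 8.76 TPM in replicates 1, 2 and 3 (23.4 ± 16.4). Its partner Ndufv2, an iron-sulfur protein (chr17:66078795-66101559, minus strand), was at 27.2, 39.8 and 21.5 TPM (29.5 ± 9.33). Ndufs1, the large iron-sulfur subunit of the same module (chr1:63143596-63176833, minus strand), was at 12.7, 16.5 and 4.22 TPM (11.1 ± 6.27), the lowest core subunit by mean. All 3 were highest in replicate 2 and lowest in replicate 3. The place of Ndufs1 rests on its deposited length of 8086 bases: with the median transcript length its mean was 82.2 ± 42.9 TPM, and its rank among members went from 31 to 4. That median is only 651 bases, and which transcripts were present was not tested. Neither value is therefore taken as the corrected level of Ndufs1.

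The Q module joins the peripheral arm to the membrane and holds the quinone site. Ndufs7 (chr10:80249121-80256794, plus strand) lies at that site and carries the terminal iron-sulfur cluster. Ndufs7 was at 15.2, 26.4 and 7.79 TPM (16.5 ± 9.39). Ndufs8, an iron-sulfur subunit of the same module (chr19:3908870-3912717, minus strand), was at 29.8, 71.0 and 25.02 TPM (41.9 ± 25.3), and its order against Ndufs7 turns in replicate 1 with the median transcript length (17.9 against 18.2 TPM). Ndufs3, which helps nucleate the module (chr2:90894634-90904827, minus strand), was at 33.4, 44.5 and 31.0 TPM (36.3 ± 7.20), the narrowest relative spread of the core. The ranges of Ndufs3 and Ndufs8 overlapped.

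Among the accessory subunits the level ran from 2.38 to 136 TPM. Ndufa2, a thioredoxin-fold subunit of the NADH module, was highest with the deposited length at 137, 146 and 124 TPM (136 ± 11.2). Ndufv3, a small subunit on the same module (chr17:31520115-31531326, plus strand), followed at 108, 122 and 116 TPM (115 ± 7.02). With the median transcript length Ndufv3 came first at 272 ± 19.5 TPM, then Ndufa6 at 95.4 ± 52.0 and Ndufa2 at 82.5 ± 1.34. Ndufa2 and Ndufv3 were nearly level across libraries, where most members fell in replicate 3. Their shares of the members' summed TPM averaged 10.2% ± 3.01 and 8.82% ± 3.26. Ndufa6 (chr15:82350139-82354291, minus strand), a LYR-motif protein that holds the acyl carrier protein Ndufab1, ranged from 46.6 TPM in replicate 3 through 104 to 178 TPM in replicate 2. Its mean of 109.6 ± 65.7 TPM with the deposited length could not be ordered against Ndufa2 or Ndufv3 within the spread of the libraries.

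With the deposited length, the other high accessory genes belong mostly to the membrane arm. Ndufb11, a single-pass membrane subunit (chrX:20615326-20617619, minus strand), was at 86.0, 134 and 56.7 TPM (92.2 ± 38.9). Ndufa1, a small membrane subunit also encoded on the X chromosome (chrX:37187588-37191163, minus strand), was at 69.7, 104.8 and 19.2 TPM (64.6 ± 43.0). Ndufb10, a disulfide-bearing subunit of the distal arm (chr17:24722060-24724478, minus strand), was at 55.0, 88.1 and 47.3 TPM (63.5 ± 21.7). Each was highest in replicate 2. Ndufa13, known also as GRIM-19 (chr8:69894180-69902558, minus strand), was at 56.1, 79.1 and 27.8 TPM (54.3 ± 25.7). With the median transcript length Ndufa1 went from rank 5 to 17 among members and Ndufa13 from 7 to 19. Ndufb11 went from 4 to 9 and Ndufb10 from 6 to 5, while Ndufa7 of the NADH module rose from 20 to 8. Ndufb11 kept a steadier share of the summed member TPM than Ndufa2 or Ndufv3, at 6.35% ± 0.271, and Ndufb9 at 3.03% ± 0.134.

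At the lower end, Ndufb4, a distal-arm subunit (chr16:37647170-37654453, minus strand), had 2, 13 and 1 counts, or 0.908, 5.67 and 0.572 TPM (2.38 ± 2.85). It was the only structural subunit under 1 TPM in a library, and it has a near-identical processed copy, Ndufb4c. Ndufab1, the mitochondrial acyl carrier protein that sits in both arms, was at 5.17, 6.90 and 5.54 TPM (5.87 ± 0.908). Ndufb2, another distal-arm subunit, was at 7.08, 8.16 and 3.92 TPM (6.39 ± 2.20). The placing of Ndufab1 leans on length: it has 6883 deposited exon bases, and with the median transcript length it averaged 24.9 TPM. Ndufb2 has 5628 deposited bases. With its median transcript length it averaged 8.96 TPM and moved only from rank 41 to 38 among members. Ndufa11, a membrane subunit that contacts complex III in supercomplexes, was at 4.79, 10.7 and 4.02 TPM (6.52 ± 3.68). Ndufs5, a subunit on the intermembrane-space side, was at 8.03, 10.7 and 6.22 TPM (8.31 ± 2.24) from 13, 18 and 8 counts.

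Grouped by the module in which the protein is found, the order of the medians depended on the length used. With the deposited length the Q module came first: its 6 members had a median of 38.0 TPM, with Ndufs7 lowest at 16.5. The NADH module (10 members) had a median of 29.0 TPM, from Ndufa12 at 10.9 to Ndufa2 at 136. The proximal membrane arm (9 members) had a median of 25.7 TPM, from Ndufa11 at 6.52 to Ndufa1 at 64.6. The distal membrane arm (10 members) had a median of 20.1 TPM, from Ndufb4 at 2.38 to Ndufb11 at 92.2. With the median transcript length the NADH module came first at 49.4 TPM, then the distal arm at 34.7, the Q module at 34.1 and the proximal arm at 20.5. The ranges overlapped widely, and the medians were not tested against each other.

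The 8 assembly factors had a median mean TPM of 8.78, beside 29.0 for the structural subunits and 7.15 for protein-coding genes with a count. Ndufaf3 had the highest mean among them, though Ndufaf2 was above it in replicate 2 (21.05 against 20.8 TPM). Ndufaf3 (chr9:108565537-108567434, minus strand), which acts on the Q module, was at 18.4, 20.8 and 31.7 TPM (23.7 ± 7.08) and was the only assembly factor at 10 TPM or more in all libraries. It differed from nearly all members in being highest in replicate 3. Its partner in the same step, Ndufaf4 (chr4:24898083-24905001, plus strand), was at 9.80, 14.4 and 4.12 TPM (9.44 ± 5.15), below Ndufaf3 in each library. Ndufaf3 shares 48 exonic bases with Impdh2 on the other strand, whose counts were 177, 233 and 64, whereas Ndufaf4 had no opposite-strand gene within 5 kb. Of the other opposite-strand genes within 5 kb of Ndufaf3, Dalrd3 had 555, 615 and 628 counts and 4833445I07Rik 1, 2 and 0. Mir425 and Mir191 had none. The part of these genes in the counts of Ndufaf3 was not tested.

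Other factors act at later or separate steps. Ndufaf2, an Ndufa12 paralog bound to a late intermediate (chr13:108052590-108158625, minus strand), was at 8.61, 21.05 and 14.8 TPM (14.8 ± 6.22). Ndufaf5, which hydroxylates an arginine of Ndufs7 (chr2:140170649-140203689, plus strand), was at 5.94, 11.7 and 6.73 TPM (8.12 ± 3.12). Ndufaf8, the protein that stabilises Ndufaf5 (chr11:120098928-120100705, plus strand), was at 11.5, 12.2 and 5.62 TPM (9.77 ± 3.62). The ranges of Ndufaf5 and Ndufaf8 overlapped. Ndufaf7, a mitochondrial arginine methyltransferase (chr17:78937135-78948052, plus strand), was at 6.69, 9.53 and 1.74 TPM (5.99 ± 3.94).

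The remaining factors were close to the limit of detection in replicate 3. Ndufaf1, a scaffold of the membrane-arm intermediate (chr2:119655446-119662827, minus strand), was at 9.91, 10.5 and 0.892 TPM (7.11 ± 5.40), from 28, 31 and 2 counts. Ndufaf6, needed at an early step (chr4:11051045-11076205, minus strand), had 16, 13 and 0 counts, or 6.88, 5.37 and 0 TPM. A count of 0 in replicate 3 allows up to 1.63 TPM (3 counts), so its absence there was not shown at this depth.

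Structural subunits stood above assembly factors. Their median was 24.3, 44.1 and 17.9 TPM in replicates 1, 2 and 3, and that of the assembly factors was 9.20, 11.97 and 4.87 TPM. At least 1 TPM in all libraries was reached by 35 of 36 subunits and 6 of 8 factors, and at least 10 TPM by 21 subunits and 1 factor. On the log2(TPM + 0.1) scale the difference of medians was 1.39, 1.87 and 1.88, with a mean of 1.71 ± 0.28 (SD, n = 3). The direction was the same in 3 of 3 libraries, and the exact two-sided sign-flip test gave p = 0.25, the smallest that 3 libraries allow. In each library some subunits lay within the range of the factors: 23, 26 and 6 of the 36 subunits exceeded every factor in replicates 1, 2 and 3. The drop to 6 in replicate 3 goes with Ndufaf3 at 31.7 TPM. Above the median factor in all 3 libraries stood 27 subunits.

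**Figure D2:**
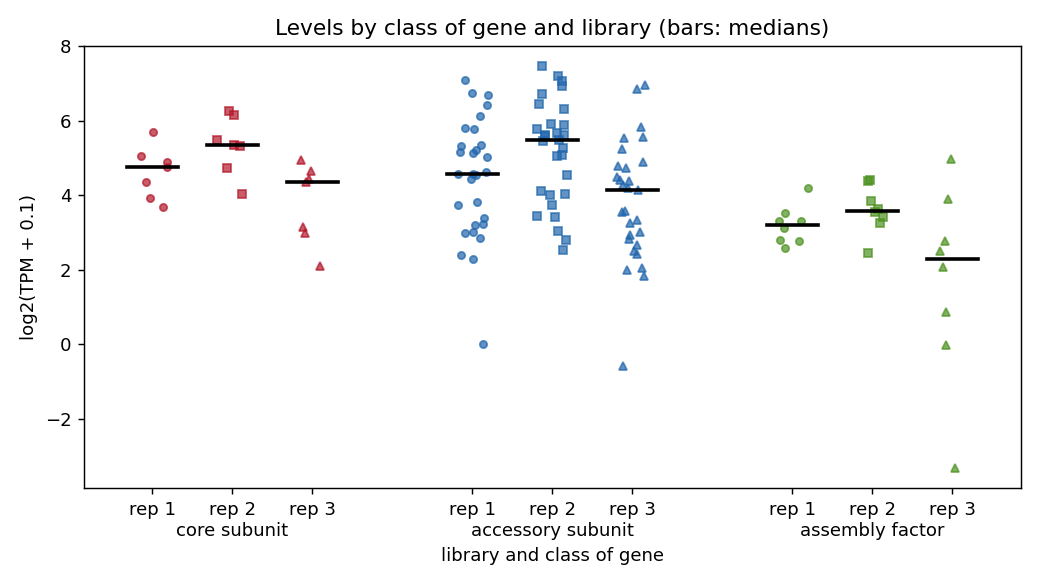
Levels of core subunits, accessory subunits and assembly factors as log2(TPM + 0.1) in each library, with a point per gene and a bar at the median. The bar of the assembly factors (9.20, 11.97 and 4.87 TPM in replicates 1, 2 and 3) is the lowest of the 3 classes in each library, and the core and accessory bars change places between libraries.

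Core and accessory subunits were not separated. Core medians were 27.2, 41.1 and 20.3 TPM and accessory medians 23.9, 44.5 and 17.5 TPM in replicates 1, 2 and 3. The log2 difference was 0.19, -0.11 and 0.21, a mean of 0.093 ± 0.18 (SD, n = 3) with an exact sign-flip p of 0.5. Its sign turned with the treatment of length and of gene copies: it was -0.079 with 200 bases taken off each length, -0.24 without the members that have near-identical copies, and 0.51 with the median transcript length. A p of this size does not show that the classes have equal levels.

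Members with a direct relation to each other were set side by side. Ndufs7 exceeded its hydroxylase Ndufaf5 by 1.34, 1.17 and 0.21 (0.90 ± 0.61, exact sign-flip p = 0.25), a ratio of summed counts per base of 2.08 with an exact 95% interval of 1.58 to 2.76, for counting error only. By TPM, Ndufs7 was thus above its modifying factor in every library, by a margin that nearly closed in replicate 3. The counts there were 20 for Ndufs7 and 18 for Ndufaf5, with overlapping 95% intervals (12.2 to 30.9 and 10.7 to 28.4). The order in that library therefore lies within counting error.

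Ndufa12 and its paralog Ndufaf2 were not ordered. The log2 ratio was 0.089, -0.65 and -0.55 (-0.37 ± 0.40, exact sign-flip p = 0.5), and the ratio per base from 78 and 54 summed counts was 0.735 with an interval of 0.513 to 1.06. Ndufa12 itself was at 9.16, 13.4 and 10.03 TPM (10.9 ± 2.23). Without length scaling the ratio was 0.59 and with the median transcript length 0.0076, so the sign depends on the length used.

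Ndufa4 and Ndufa4l2 differed most. Ndufa4, the complex IV subunit, was at 34.2, 59.9 and 22.3 TPM (38.8 ± 19.2). Ndufa4l2, a hypoxia-induced paralog (chr10:127514967-127517154, plus strand), had 2, 0 and 5 counts, or 0.970, 0 and 3.06 TPM. The summed counts of 297 and 7 give a ratio per base of 33.6 with an interval of 16.1 to 84.4, and the log2 ratios of 5.00, 9.23 and 2.83 were positive in 3 of 3 libraries (exact sign-flip p = 0.25). The value of 9.23 rests on the pseudocount, since Ndufa4l2 was at 0 in replicate 2. Ndufa4l2 shares 32 exonic bases with the more counted Shmt2 of the other strand (127, 211 and 60 counts).

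Exons of 14 members (30.4%) overlap exons of the other strand, a share close to the 29.9% of all protein-coding genes with a count. A further 21 members had an opposite-strand gene within 5 kb and 11 had none. The median of mean TPM was 30.9 for the overlapping members, 29.5 for those with a near neighbour and 10.9 for those with none. The overlapping members had 16 opposite-strand partners, and of the 14 with a ratio the partner's count ratio of replicate 3 to replicate 2 exceeded the member's in 11.

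Some partners were counted far above the member. Ndufb5, a distal-arm subunit, had 87, 157 and 26 counts and shares 616 bases with Mrpl47, a mitochondrial ribosomal protein gene with 1260, 1204 and 1526 counts. Ndufs1 had 193, 261 and 51 counts and shares 489 bases with the antisense transcript Ino80dos, which had 1078, 828 and 958. Both members had their fewest counts in replicate 3, while Mrpl47 and Ino80dos had more there than in replicate 2. Ndufs1 also shares 9 bases with Eef1b2, which had 1882, 2700 and 771 counts, fewest in replicate 3 like Ndufs1. Ndufb6, a membrane subunit, had 27, 43 and 21 counts and shares 257 bases with Smim27, which had 574, 473 and 591.

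In 3 further loci a partner again had more counts in replicate 3 than in replicate 2. Ndufa9, a Q-module subunit that binds a nucleotide cofactor, had 128, 201 and 118 counts and shares 67 bases with 1700018A23Rik at 685, 597 and 727. Ndufab1 had 67, 93 and 57 counts and shares 269 bases with Gm44986 at 331, 332 and 423. Ndufb2 had 75, 90 and 33 counts, shares 156 bases with Gm16272 at 308, 220 and 253, and shares 146 with Braf at 165, 188 and 78. Braf was thus fewest in replicate 3, as Ndufb2 was, and the part of the strand setting in these members' counts was not tested. Ndufb11 overlaps Rbm10 over 117 bases, with 479, 618 and 351 counts for Rbm10 and 147, 238 and 77 for Ndufb11.

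The remaining overlaps were of mixed kind. Ndufa13 had 132, 194 and 52 counts and shares 375 bases with Tssk6 (179, 180 and 111). Ndufs3 had 137, 190 and 101 counts and shares 88 bases with Kbtbd4 (249, 238 and 228). Ndufa2 (147, 164 and 106 counts) shares 60 bases with Tmco6, and Ndufa3 (68, 120 and 28 counts) shares 4 with Tfpt. Ndufb8 and Ndufb2 also overlap genes on their own strand (Gm20538 and Gm42420), and 8 members have near-identical processed pseudogenes. The copies held 0 to 3 counts, except the Ndufb3 copy Gm45930, whose counts were not analysed here.

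Counts of the members were compared between the libraries by a Poisson chi-square test on 2 degrees of freedom with Benjamini-Hochberg adjustment over 10662 genes. This asks whether the 3 libraries differ by more than counting error and compares libraries, not conditions. Of the 46 members, 40 passed the filter on low counts, and 17 of them (42.5%) passed the test, beside 62% of all tested genes with the same TMM scaling. The tested members had a median of 223.5 summed counts, beside 329 over all tested genes. Without replicate 3 the count was 5 of 44 members (11.4%), beside 28.2% of tested genes. With no filter on counts it was 20 of 46 members (43.5%), beside 42.6% of tested genes. The lower share of the members thus depended on the filter. Ndufaf1, Ndufaf6, Ndufaf7, Ndufb4, Ndufc2 and Ndufa4l2 were not tested.

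The direction within the 17 depended on the scaling. With TMM, 10 were lower in replicate 3 than in replicate 2 and 7 were higher. When the libraries were scaled on 2454 protein-coding genes whose other strand is free of genes within 5 kb, 17 members again passed, beside 53.2% of all tested genes, with 2 lower and 15 higher, and 10 members passed under both scalings. The scaling moved the median log2 ratio of all tested genes from -0.098 to 0.37 and that of the tested members from 0.049 to 0.51. Directions below are therefore relative to a scaling. The test covers all 3 libraries, so a pass does not show that replicates 3 and 2 differ. Ndufs8 passed with the second scaling (chi-square adjusted p = 0.0189). Its log2 ratios to replicate 2 were 0.13 for replicate 3 and -0.64 for replicate 1.

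Members higher in replicate 3 under both scalings were led by Ndufaf3, whose counts were 63, 74 and 86 (log2 ratio of replicate 3 to replicate 2 of 1.76 with TMM and 2.23 with the other scaling, chi-square adjusted p = 5.05e-17 and 3.92e-28). Besides Ndufa4l2 it was the only member with more counts in replicate 3 than in replicate 2. Ndufv3 followed with 507, 596 and 432 counts (1.09 and 1.56, chi-square adjusted p = 1.41e-33 with TMM). Ndufa2 came next at 0.92 with TMM (chi-square adjusted p = 3.81e-06), then Ndufab1 at 0.85 (0.00154) and Ndufa9 at 0.79 (4.67e-07). Of these 5 genes, Ndufv3 was the only one with no overlapping exon on the other strand.

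Members lower in replicate 3 were led by Ndufa1, with 55, 86 and 12 counts and a log2 ratio of -1.27 (chi-square adjusted p = 0.0214), which did not pass with the other scaling (0.23). Ndufv1 had 97, 203 and 33 counts (-1.06 and -0.59, chi-square adjusted p = 5.33e-05 and 0.0316). Ndufa10, a membrane-side subunit of nucleoside-kinase fold, had 150, 285 and 47 counts (-1.04 and -0.57, chi-square adjusted p = 8.3e-06 and 0.0342). Ndufv1 and Ndufa10 were the only members lower in replicate 3 that passed under both scalings with that sign. Ndufb5 at -1.03 (chi-square adjusted p = 0.00308, 0.217 with the other scaling) and Ndufa8, a twin-cysteine subunit, at -0.95 (0.0429, then 0.206) passed with TMM alone.

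By strand class, the test was passed with TMM by 8 of 13 members with overlapping exons (74.4% of all such genes), 6 of 19 with a near opposite-strand gene (54.0%) and 3 of 8 with none (52.1%). The median log2 ratio of replicate 3 to replicate 2 with TMM was 0.11 for the overlapping members, beside 1.02 for all such genes. It was -0.45 for the members whose other strand is free within 5 kb, beside -0.45 for all such genes.

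**Figure D3:**
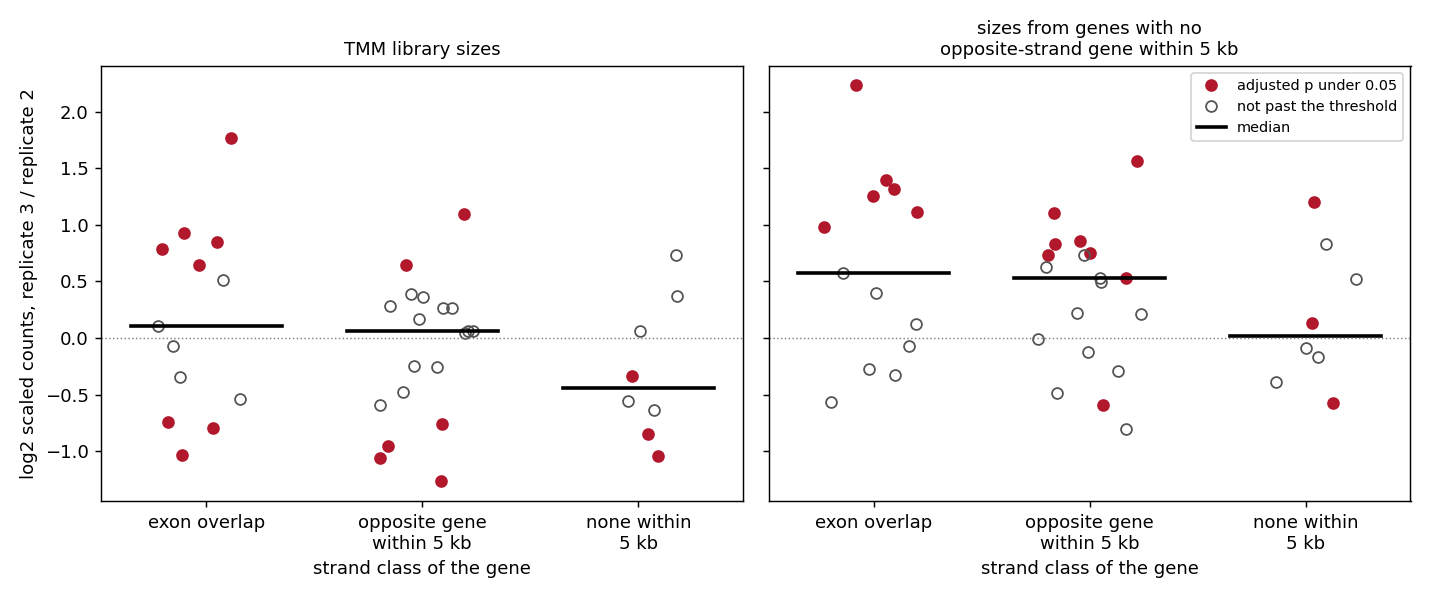
Log2 ratio of scaled counts of replicate 3 to replicate 2 for the 40 tested members by strand class, with TMM sizes (left) and with sizes from genes whose other strand is free of genes within 5 kb (right); filled red points passed the chi-square test at an adjusted p under 0.05. The points shift upward as a body from left to right, and Ndufaf3 is the highest at 1.76 and 2.23.

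Several members share a promoter region with another gene. For 14 of the 46, a protein-coding gene on the other strand starts within 350 bases and runs away from the member: 9 subunits, 4 assembly factors and Ndufa4. The share of all protein-coding genes with such a neighbour was not computed, so 14 is not read as high or low. The closest was Ndufa7, an accessory subunit whose start lies 29 bases from that of Rps28, a ribosomal protein gene with 229, 377 and 119 counts, beside 79, 128 and 57 for Ndufa7. Ndufa8 starts 52 bases from Morn5, which had no count in any library, while Ndufa8 had 66, 86 and 15. Ndufaf7 starts 65 bases from Cebpz, with 570, 768 and 513 counts beside its own 29, 43 and 6. Shared promoter regions thus joined members both to genes counted far above them and to genes with no counts. Ndufaf5 starts 85 bases from Esf1 (153, 184 and 46 counts), Ndufaf2 106 bases from Ercc8 (22, 38 and 8) and Ndufv3 141 bases from Wdr4 (59, 93 and 29).

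Promoter sequence was read from RefSeq (GRCm38.p6), in windows from 250 bases before to 50 after the start, for the 40 members with an entry. Short motifs of 3 factors known from promoters of respiratory genes were searched on both strands: GCGCATGC for NRF1, CCGGAAG for ETS factors such as GABP, and AAGATGGC for YY1. A match is a description of letters and not of a bound site. The stretches with the NRF1 letters are shown because they lie in promoters of both classes, 3 of 32 subunits and 2 of 7 assembly factors with a window. This was not particular to NRF1: the ETS letters lay in 4 subunits and 2 factors, and the YY1 letters in 7 and 1. Ndufaf4 has a pair of stretches. Capitals mark the match, and where it is palindromic the overlapping matches of both strands are joined.

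Ndufa11 (chr17:56717692-56717721, plus strand): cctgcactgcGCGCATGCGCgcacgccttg
Ndufa6 (chr15:82354356-82354385, minus strand): tccgcggtagaGCATGCGCattgcagagcc
Ndufa8 (chr2:36049328-36049357, minus strand): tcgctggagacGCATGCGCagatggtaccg
Ndufaf4 (chr4:24897960-24897989, plus strand): ccagatgtctGCGCATGCGCctgtgcggaa
Ndufaf4 (chr4:24898073-24898102, plus strand): gcccctggtgtGCGCATGCtccgtgcgtac
Ndufaf5 (chr2:140170652-140170681, plus strand): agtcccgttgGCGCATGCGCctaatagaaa

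The NRF1 letters were found in 5 of 40 members (12.5%), beside 3.94% of the 17492 protein-coding windows. These 5 members had a median of mean TPM of 9.44, from Ndufa11 at 6.52 to Ndufa6 at 109.6. The ETS letters were found in 6 members (15%), beside 12.9% of all windows: Ndufaf1, Ndufaf8, Ndufb6, Ndufb7, Ndufs3 and Ndufs8, with a median of 18.7 TPM.

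The YY1 letters were found in 8 members (20%), beside 3.57% of all windows. All 8 matches lay on the strand of the gene and began between 11 and 39 bases after the start. Among all 17492 windows, 624 held the letters on either strand. Of these, 259 held them on the strand of the gene after the start. That is 1.48% of all windows, beside 20% of the members, so this place and strand were not particular to the members. The 8 matches are shown because their place and strand were shared.

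Ndufa3 (chr7:3617384-3617413, plus strand): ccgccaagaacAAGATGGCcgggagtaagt
Ndufa9 (chr6:126849097-126849126, minus strand): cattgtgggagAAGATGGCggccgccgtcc
Ndufaf8 (chr11:120098933-120098962, plus strand): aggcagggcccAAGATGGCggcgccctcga
Ndufb8 (chr19:44555393-44555422, minus strand): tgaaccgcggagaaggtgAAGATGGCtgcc
Ndufc1 (chr3:51408915-51408944, minus strand): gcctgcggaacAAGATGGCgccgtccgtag
Ndufs4 (chr13:114388045-114388074, minus strand): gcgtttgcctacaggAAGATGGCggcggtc
Ndufs6 (chr13:73328433-73328462, minus strand): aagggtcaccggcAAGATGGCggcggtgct
Ndufs7 (chr10:80249462-80249491, plus strand): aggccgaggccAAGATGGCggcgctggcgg

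In these stretches the letters include an ATG. The 8 members had a median of mean TPM of 22.1, and the 22 members with none of the 3 motifs had 24.7. The highest member by mean with none of the motifs was Ndufv3 at 115 TPM. Among the YY1 group, Ndufs4, an NADH-module subunit whose loss causes Leigh syndrome, was at 23.5, 47.9 and 11.8 TPM, and Ndufs6, a zinc-binding subunit, at 35.5, 49.5 and 26.6 TPM. The window says nothing of motifs farther away.

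**Figure D4:**
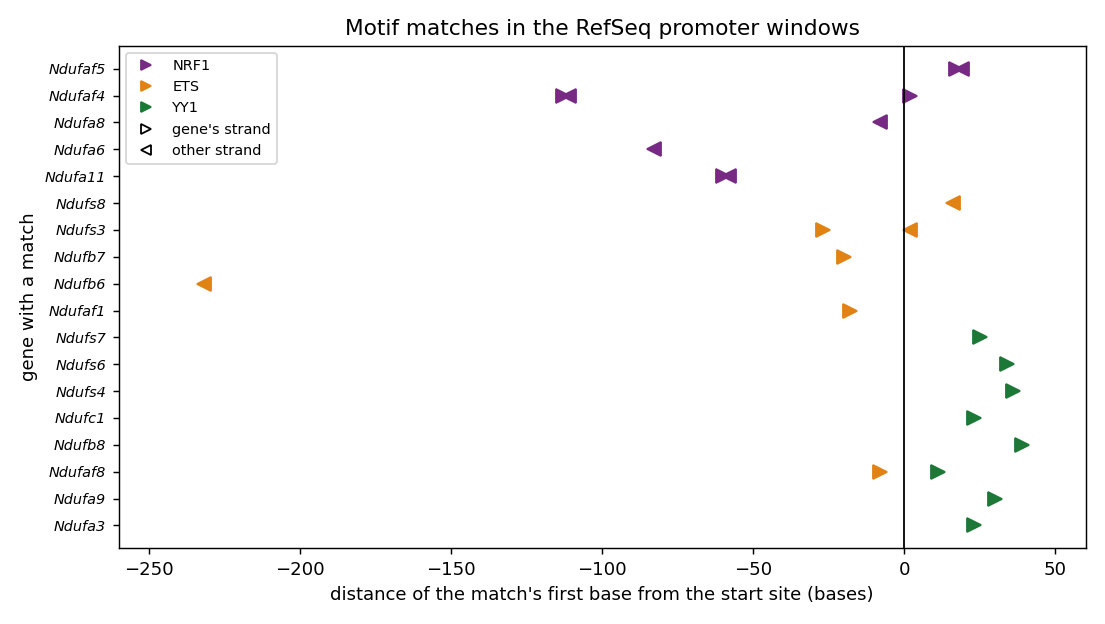
Distance in bases of each motif match from the RefSeq start for the members with a match, coloured by motif and with an arrow for the strand. The YY1 matches line up between 11 and 39 bases after the start on the strand of the gene, while the NRF1 matches begin between -113 and 19 and all ETS matches but that of Ndufb6 at -232 between -27 and 16.

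The other parts of the respiratory chain were described with the deposited length. Complex II (4 genes) had a median of mean TPM of 25.9, led by Sdha at 51.3 ± 27.7, and complex III (9 genes) 38.7, led by Uqcrh at 236 ± 102. Complex IV (10 genes) had a median of 60.3, led by Cox6b1 at 128 ± 84.6, and complex V (17 of 18 listed genes matched) 53.5, led by Atp5mpl at 123 ± 66.0. The structural subunits of complex I had a median of 29.0, and the medians were not tested against each other. All genes of complexes II, III and IV reached 1 TPM in all libraries, as did 15 of the 17 of complex V. The other complex I assembly factors (10 of 11 matched) had a median of 8.62 TPM, beside 8.78 for the 8 Ndufaf genes. They ran from Nubpl, an iron-sulfur carrier, at 0.594 ± 0.533 to Ecsit, a partner of Ndufaf1, at 52.7 ± 9.78, whose exons overlap the other strand.

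The 7 mitochondrially encoded core subunits behaved unevenly. mt-Nd6 had 22616 ± 3920 TPM, and it lies opposite mt-Nd5, which had 695 ± 461. mt-Nd1 was at 1126, 1711 and 273 TPM (1037 ± 723), mt-Nd2 averaged 975 ± 676 and mt-Nd4 578 ± 374. In replicate 3 mt-Nd4 was at 186 TPM and mt-Nd2 at 238. The highest nuclear member, Ndufa2, was at 124 TPM there, and the median structural subunit at 17.9. mt-Nd3 and mt-Nd4l had 0 counts in all 3 libraries. In mouse mitochondria mt-Nd6 is the only complex I gene on its strand, and the part of strand and of overlapping annotation in these values was not tested.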

How the data were processed

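The deposited values are raw fragment counts. Per the file headers, featureCounts 1.4.6-p4 assigned paired fragments to GENCODE M13 exons joined by gene, with strand setting 1. The assembly is mm10, per the labels. Symbols came from GENCODE M21, which named 50376 of 50600 identifiers. TPM were derived from these counts and the exon lengths in the same tables. Library sizes used TMM in edgeR 4.0.16, with DESeq2 1.42.0 as an alternative, in R 4.3.3. Class and pair differences used log2(TPM + 0.1) and an exact two-sided sign-flip test over 3 libraries. Counts were tested between libraries over the genes kept by filterByExpr at an adjusted p of 0.05. The test was checked only on counts simulated from the Poisson model that it assumes. That check does not cover counts with a wider spread. Overlaps came from bedtools 2.31.1 and near-identical copies (at least 95% identity over 200 bases) from blastn 2.17.0. Intervals and floors (3 counts) cover counting error only, since duplicates from PCR are unmarked. The sign-flip p-values set a mean difference within libraries against all flips of its sign. The chi-square p-values set the counts against counting error under a given scaling. Both kinds rest on these libraries, which share a donor identifier. The members and lists were chosen with earlier results of these data known. Named with values were the 8 highest and 5 lowest subunits, core subunits, assembly factors, pairs, overlapping members, and those of the largest and smallest ratios between libraries. Ndufb7, Ndufb9, Ndufs4, Ndufs6, Ndufc1, Ndufa3, Ndufa7, Ndufa8 and Ndufb8 were added after their values were seen. The values of 1 member are not reported here, though counts and medians over the members include it.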

Additional observations from a re-analysis of the deposited data

How the results depend on the processing

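Of 63 recomputed values, 56 were rated the same. For differences this means the same sign, and for counts of members a value near the main count. A fall from 17 to 12 varying members was thus still rated the same. Of the rest, 4 differences were reversed in sign and 3 counts moved farther. The excess of subunits over assembly factors was 1.49 to 2.01 under 11 alternatives (1.63 to 1.87 when a replicate was left out). The core minus accessory difference turned to -0.079 with 200 bases off each length and to -0.24 without members that have near-identical copies, and Ndufa12 to Ndufaf2 turned to 0.59 without length scaling and to 0.0076 with the median transcript length. The copies and transcript-length alternatives were chosen after seeing the data. Leaving out a replicate gave 0.036 to 0.20 and -0.60 to -0.23 for these. Members varying between libraries numbered 17, and 9 among members without exon overlap (fewer genes). Leaving out replicate 1, 2 or 3 gave 15, 12 and 5. These were 38.5%, 32.4% and 11.4% of the tested members, beside 60.2%, 49.2% and 28.2% of all tested genes. At 10 TPM the members detected were 23 in place of 42. DESeq2 sizes gave 16 varying members (40% of those tested), beside 58.1% of all tested genes. With no filter 20 of 46 members varied (43.5%), beside 42.6% of all genes tested that way. The causes were not tested beyond the construction named. No paired analysis was possible because there was 1 group. Low counts limit Ndufb4, Ndufaf1, Ndufaf6 and Ndufa4l2.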
